A study of Mus musculus with 4 samples.

Results

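The proteasome genes of this study were the 45 genes, of the 8797 measured, whose symbol begins with Psma, Psmb, Psmc, Psmd, Psme, Psmf or Psmg followed by a digit, with the inducible catalytic genes Psmb8 and Psmb9 set apart. They were read in liver mRNA of 4 female F1 hybrid mice aged 5 months. Each mouse carried a C57BL/6J (B6) and an MSM/Ms (MSM) copy of every autosome and of the X chromosome, MSM being an inbred strain derived from Mus musculus molossinus. The MSM/B6 cross (MSM mother, B6 father) and the B6/MSM cross (B6 mother, MSM father) had 2 mice each. No pure strain was sequenced, so each comparison was either between the alleles within a mouse or between the reciprocal crosses. Values for the 4 mice are given throughout in the order MSM/B6 replicate 1, MSM/B6 replicate 2, B6/MSM replicate 1, B6/MSM replicate 2.

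The proteasome is the large protease that degrades ubiquitin-tagged proteins in the cytosol and nucleus. Its 20S core is a barrel of alpha rings, which gate the entrance, and beta rings, in which Psmb5, Psmb6 and Psmb7 hold the active sites, and the 19S regulatory particle binds, unfolds and deubiquitinates substrates with its ATPases (Psmc genes) and its lid and base scaffold (most Psmd genes). Immune signals replace the standard active-site subunits with Psmb8, Psmb9 and Psmb10, dedicated chaperones assemble core and cap, and in the liver the complex turns over short-lived enzymes and misfolded secretory proteins returned from the endoplasmic reticulum.

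Expression was given in FPKM, a count of fragments scaled to transcript length and library size, which is a level per length, and allelic origin as the B6-allele frequency, the B6 reads divided by all reads assigned to either allele, so that 0.5 means equal representation. A frequency in all 4 mice was listed for 20 of the 45 proteasome genes and for 3632 of all genes. All 20 lay beyond 100 Mb on chromosomes 1 to 15 or X or beyond 10 Mb on chromosomes 16 to 19, and none of the 25 proteasome genes nearer the chromosome start had a frequency. Over all genes the same division held 3525 of 3925 distal genes (89.8%) and 95 of 4845 proximal genes (1.96%) with a frequency, so the catalytic genes Psmb5, Psmb6 and Psmb7, all proximal, could not be read by allele. The cause of this division was not tested. The reads behind a frequency were not given, so its depth is unknown and its error was taken from the spread between mice.

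The liver label was met by 5 of 6 hepatocyte markers, whose summed expression was 16684, 16691, 12198 and 14853 FPKM, with Alb not analysed here. Summed markers of other cells were 101 to 143 FPKM for Kupffer cells (4 of 5 markers listed), 101 to 120.3 FPKM for sinusoidal endothelium (5 of 5), 71.0 to 97.2 FPKM for stellate cells (3 of 5) and 9.51 to 14.6 FPKM for cholangiocytes (1 of 4), and of 5 lymphocyte markers only Ccl5 was listed, at 2.07 to 5.61 FPKM. The summed FPKM of all genes was 671875 in MSM/B6 replicate 1 and 529024 to 572780 in the other 3 mice.

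Proteasome genes were among the more strongly expressed genes of the liver. Their median level, by mean over the mice, was 62.9 FPKM against 11.5 FPKM for all genes, and 42 of the 45 lay above the all-gene median. The 20S core genes stood mostly above the 19S genes. Without Psma8 and Psmb10, the 14 core genes had a median of 134, 111, 104 and 115 FPKM, and the 17 genes of the 19S particle had a median of 67.7, 59.3, 59.0 and 60.0 FPKM. The ratio of these medians lay between 1.76 and 1.99 in every mouse. A mean above that of each of these 17 genes was found for 10 of the 14 core genes. The 19S subunits Shfm1 and Adrm1 fall outside the symbol rule and are not among the 17. Their means were 140 and 69.3 FPKM, so Shfm1 stood above the core median of 116 FPKM.

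Among the alpha subunits, Psma7 had the highest level, at 162, 119.9, 107 and 137 FPKM. Its paralogue Psma8, known as the alpha subunit of the testis, had the lowest level of all 45 genes, at 4.14, 3.56, 5.91 and 4.49 FPKM. Psma8 thus amounted to 2.56%, 2.97%, 5.53% and 3.28% of Psma7 in the 4 mice, while the other 6 alpha genes had means from 59.5 FPKM (Psma5) to 116 FPKM (Psma6). Among the structural beta subunits, which carry no active site, Psmb4 was the highest proteasome gene of all, at 231, 179, 169 and 196 FPKM. Psmb2 was the lowest of these 4 genes, at 94.8, 82.5, 66.2 and 78.8 FPKM. MSM/B6 replicate 1 held the highest value of Psma7, Psmb4 and Psmb2, whereas Psma8 was highest in B6/MSM replicate 1.

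The standard catalytic subunits were strongly expressed. Psmb7, which cuts after basic residues, was at 213, 164, 135 and 158 FPKM. Psmb6, which cuts after acidic residues, was at 134, 112, 103 and 116 FPKM. Psmb5, which cuts after hydrophobic residues, was at 172, 127, 109 and 123 FPKM. For Psmb7 and Psmb5 both MSM/B6 mice lay above both B6/MSM mice. Psmb10, the inducible replacement of Psmb7, ran the other way, at 32.0, 23.7, 40.6 and 38.1 FPKM, with both B6/MSM mice above both MSM/B6 mice. Psmb10 was 15%, 14.4%, 30.1% and 24.1% of Psmb7 in the 4 mice. The other inducible genes, Psmb8 (38.3, 28.0, 39.7 and 37.0 FPKM) and Psmb9 (19.5, 12.2, 21.6 and 17.01 FPKM), were 22.04% to 36.4% of Psmb5 and 10.9% to 21.03% of Psmb6.

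In the 19S particle the ATPases spanned Psmc1 (114, 96.4, 88.7 and 91.6 FPKM) to Psmc6 (58.1, 50.1, 46.6 and 50.2 FPKM). Among the 45 genes, the highest non-ATPase subunit was Psmd8, a lid subunit, at 105, 83.5, 79.8 and 87.3 FPKM. The lowest was Psmd14, the deubiquitinating enzyme of the lid, at 43.0, 32.3, 37.3 and 33.6 FPKM. All 4 of these genes were highest in MSM/B6 replicate 1. Psmd1, a scaffold subunit of the base, was the steadiest proteasome gene, with a mean of 46.4 ± 1.24 FPKM (SD, n = 4).

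Activators, the inhibitor and assembly chaperones covered a wider range. Psme1 and Psme2 form the interferon-inducible activator of the 20S core, and Psme1 was at 124, 102, 147 and 109 FPKM. The nuclear activator Psme3 was lower, at 23.9, 24.6, 21.8 and 22.4 FPKM. The inhibitor Psmf1 was at 10.5, 10.4, 11.3 and 9.42 FPKM. Psme1 and Psmf1 were highest in B6/MSM replicate 1 and Psme3 in MSM/B6 replicate 2. Of the 7 chaperones, Psmg1, which helps to build the alpha ring, was the highest, at 35.6, 22.9, 21.3 and 25.7 FPKM. Psmd10 (gankyrin), a chaperone of the 19S base and the only X-linked proteasome gene, was the lowest, at 9.89, 7.13, 6.86 and 7.22 FPKM. Both chaperones were highest in MSM/B6 replicate 1.

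**Figure D1:**
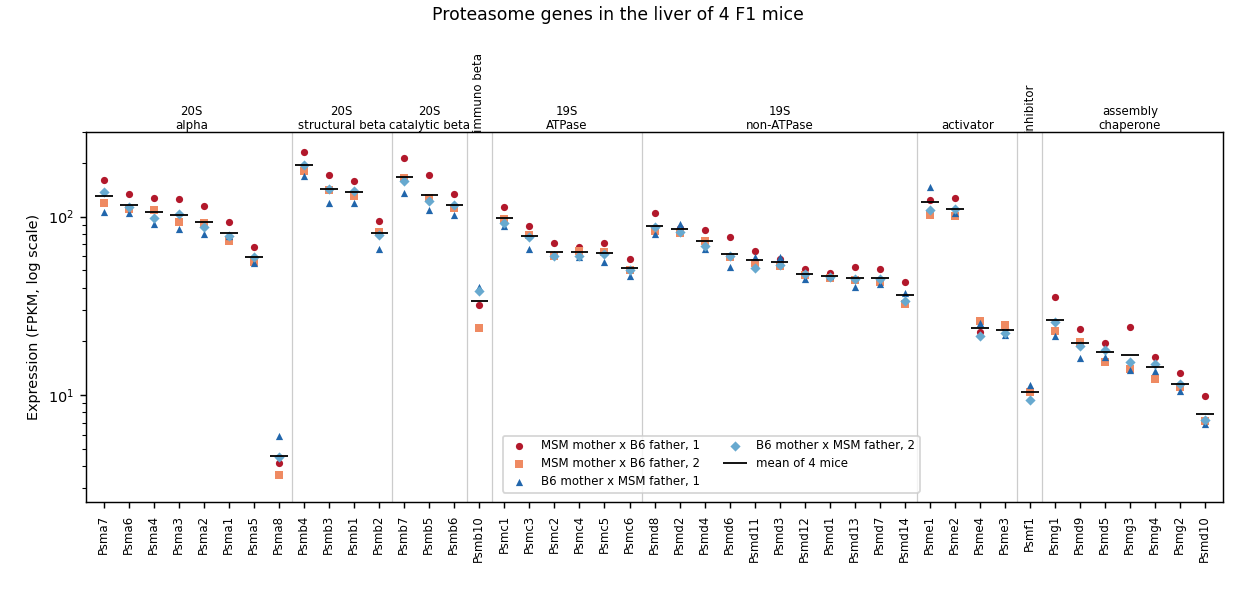
Expression of the 45 proteasome genes in each of the 4 mice, in FPKM on a log scale, grouped by role and ordered by mean within a role, with the mean of the 4 mice as a bar. The 20S core genes other than Psma8 and Psmb10 sit mostly above the 19S genes, Psmb4 is highest and Psma8 lowest, and the red circles of MSM/B6 replicate 1 lie at the top for 37 of 45 genes.

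Some proteasome genes have near-identical copies elsewhere in the genome. At 95% identity or more over at least 150 bp, the transcripts of 9 of the 45 genes matched another place, most often Psma3 (10 places), and also Psma4, Psma5, Psmb3, Psmb5, Psmc6, Psmd2, Psmd11 and Psme2. Their FPKM values are uncertain, since the authors kept 1 alignment for each read. The same holds for the allele frequencies of Psma5 (copies over 79.6% of the transcript) and Psmd2 (98.2%), the only genes of these with a frequency. No such copy was found for Psma7, Psma8, Psmb10, Psmd7, Psmd9, Psmd10, Psmd13 or Psmf1, the genes farthest from equal allelic representation below. Exons of other genes overlap Psmg3 (Gm26938, 237 bp), Psmd1 (Gm21972, 301 bp) and Psmb5 (Mir686, 109 bp) on the same strand. Reads there can come from either gene, and their part in the values was not tested.

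The first question was whether the B6 and the MSM copies of proteasome genes were equally represented in mRNA. For most they were close to equal. The mean frequency lay between 0.4 and 0.6 for 16 of 20 proteasome genes (80%) and for 79.0% of all genes, with a median of 0.501 for proteasome genes and 0.510 for all genes. In a limma fit of the log2 odds, adjusted over all 3632 genes, 3 of 20 proteasome genes were called toward the B6 allele, Psmb10, Psmd9 and Psmd13, against 22.6% of all genes. The alpha gene Psma8 was the only 1 of 20 called toward the MSM allele, against 13.6% of all genes. When each mouse was shifted to a median log2 odds of 0, the same 3 genes were called toward B6, and 4 genes, Psma7, Psma8, Psmd10 and Psmf1, toward MSM. Of all 3632 genes, 705 were then called toward B6 and 604 toward MSM, against 822 and 494 without the shift. At the limits the study used for strong allelic bias, no proteasome gene had a mean frequency of at least 0.8 (1.84% of all genes) and Psma8 alone was at 0.2 or less (1.35% of all genes).

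The reference promoter sequences of the 3 genes called toward B6 are given here to show the genomic context of the unequal alleles. That of the catalytic gene Psmb5 is added, a gene with 1 of the largest fitted expression differences between the crosses, though none was called. Each window runs from 250 bases before to 50 after the RefSeq transcription start (GRCm38.p6), 5′ to 3′ on the strand of the gene, and is the B6 reference, not the MSM allele. They are Psmd9 at chr5:123227940-123228239 (plus strand), Psmd13 at chr7:140882144-140882443 (plus strand), Psmb10 at chr8:105938343-105938642 (minus strand) and Psmb5 at chr14:54617946-54618245 (minus strand). Capitals mark matches, on either strand, to TGACNNNGC, the antioxidant response element bound by Nfe2l1 and Nfe2l2, and to GAAANNGAA, a repeat of the kind bound by interferon regulatory factors.
Psmd9: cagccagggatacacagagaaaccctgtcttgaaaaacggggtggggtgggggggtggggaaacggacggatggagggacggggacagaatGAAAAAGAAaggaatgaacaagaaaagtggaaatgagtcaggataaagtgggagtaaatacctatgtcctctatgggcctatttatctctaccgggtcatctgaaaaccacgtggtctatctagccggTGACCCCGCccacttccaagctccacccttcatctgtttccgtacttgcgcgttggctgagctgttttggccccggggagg
Psmd13: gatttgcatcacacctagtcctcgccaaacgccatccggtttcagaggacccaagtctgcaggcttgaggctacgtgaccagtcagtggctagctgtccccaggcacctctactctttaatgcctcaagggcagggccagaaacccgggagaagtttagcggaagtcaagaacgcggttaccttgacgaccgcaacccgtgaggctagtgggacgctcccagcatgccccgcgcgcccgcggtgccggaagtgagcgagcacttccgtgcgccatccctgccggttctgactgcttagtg
Psmb10: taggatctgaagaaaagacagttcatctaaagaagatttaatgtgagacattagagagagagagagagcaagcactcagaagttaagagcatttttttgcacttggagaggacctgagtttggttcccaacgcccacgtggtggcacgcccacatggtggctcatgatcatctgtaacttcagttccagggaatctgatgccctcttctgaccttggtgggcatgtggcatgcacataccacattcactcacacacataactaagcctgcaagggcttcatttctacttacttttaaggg
Psmb5: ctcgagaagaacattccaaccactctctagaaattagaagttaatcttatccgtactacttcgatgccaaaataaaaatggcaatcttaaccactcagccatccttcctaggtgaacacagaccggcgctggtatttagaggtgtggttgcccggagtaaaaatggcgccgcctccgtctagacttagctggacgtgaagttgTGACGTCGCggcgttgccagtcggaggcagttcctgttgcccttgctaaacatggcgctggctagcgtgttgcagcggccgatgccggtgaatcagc

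Nfe2l1 is the transcription factor that raises proteasome genes when the complex is inhibited. Among the 40 windows listed for 37 of the 45 proteasome genes, TGACNNNGC was found in 6 (15%), those of Psmb5, Psmb6, Psmc6, Psmd9, Psmd12 and Psme4, and in 14.6% of the windows of all measured genes. In Psmd9 it began at position -31 and in Psmb5 at position -47 relative to the start. GAAANNGAA was found in 7 windows of proteasome genes (17.5%) and in 7.1% of all measured genes' windows, and CCAAT, the CCAAT box, in 12 (30.0%) and 37.9%. No match to 1 of these motifs overlapped a match to another in the windows of proteasome genes. The windows of Psmd13 and Psmb10 held none of the 3 motifs.

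Psmb10, the inducible beta subunit, lies on chromosome 8 (105935735 to 105938444, mm10). Its frequency was 0.593, 0.687, 0.698 and 0.672 (mean 0.663 ± 0.0474, SD, n = 4). The B6 allele was above 0.5 in 4 of 4 mice, and the crosses overlapped. Its mean log2 odds was 0.98 (SE 0.13, adjusted p = 0.0163, range over the alternatives 0.0105 to 0.103). The adjusted p was 0.103 without B6/MSM replicate 1 and 0.0922 without B6/MSM replicate 2. Of 15 other genes with a frequency within 250 kb, with a median of 0.503, 1 was above Psmb10. The other inducible genes, on chromosome 17, were nearer to equal, with frequencies of 0.477, 0.466, 0.505 and 0.487 for Psmb8 and of 0.544, 0.553, 0.511 and 0.572 for Psmb9.

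Psmd9, a chaperone that holds 19S ATPases during assembly, lies on chromosome 5. The GENCODE span of Psmd9 (123169413 to 123250131) starts well before its RefSeq promoter window, which lies inside it. The frequency of Psmd9 was 0.626, 0.625, 0.608 and 0.609 (mean 0.617 ± 0.00958, SD, n = 4). The 4 mice were close together and all above 0.5, and both MSM/B6 mice lay just above both B6/MSM mice. The mean log2 odds was 0.69 (SE 0.04, adjusted p = 0.00489, range over the alternatives 0.00316 to 0.0558), with 0.0552 without B6/MSM replicate 1 and 0.0558 without B6/MSM replicate 2. The 5 neighbours within 250 kb of the GENCODE span had a median of 0.468 and none was above Psmd9.

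Psmd13, a lid subunit on chromosome 7 (140881968 to 140898643), had frequencies of 0.557, 0.568, 0.578 and 0.546 (mean 0.562 ± 0.0141, SD, n = 4). The shift from 0.5 was small but in the same direction in 4 of 4 mice, and the crosses overlapped. The mean log2 odds was 0.36 (SE 0.06, adjusted p = 0.0235, range over the alternatives 0.0161 to 0.107). This call was lost without any 1 of the 4 mice, at adjusted p from 0.0846 to 0.107. Psmd13 overlaps the transcribed part of Sirt3 on the opposite strand over 342 bp. The libraries and the alignment kept the strand, and the part of Sirt3 reads in these frequencies was not tested. The 14 neighbours of Psmd13 ranged from 0.0196 to 0.996, with 3 above it.

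Psma8, on chromosome 18 (14706151 to 14762301), had frequencies of 0.133, 0.181, 0.131 and 0.0846 (mean 0.132 ± 0.0392, SD, n = 4). The MSM allele thus supplied most of its reads in 4 of 4 mice, and both MSM/B6 mice lay above both B6/MSM mice. The mean log2 odds was -2.76 (SE 0.17, adjusted p = 0.00523, range over the alternatives 0.00134 to 0.0468). The call held without each of the 4 mice in turn. At 4.52 FPKM on average it had the fewest fragments per length of the 20 genes. Its only neighbour with a frequency within 250 kb was at 0.495. Psma7, the paralogue that Psma8 replaces in germ cells, was at 0.462, 0.467, 0.478 and 0.470 (mean 0.469 ± 0.00675, SD, n = 4), below 0.5 in every mouse, with a log2 odds of -0.18 (SE 0.04) that missed the threshold (adjusted p = 0.0522, range over the alternatives 0.0279 to 0.1995).

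The other alpha and structural beta genes were near 0.5. Psma1 was at 0.468, 0.523, 0.4998 and 0.504. Psma5 was at 0.516, 0.508, 0.584 and 0.501. Both had at least 1 mouse close to 0.5, and in Psma5 B6/MSM replicate 1 stood above the other 3 mice. Psmb1 was at 0.499, 0.503, 0.483 and 0.485. Psmb2 was at 0.510, 0.512, 0.483 and 0.506. In these beta genes both MSM/B6 mice lay above both B6/MSM mice by a few hundredths at most.

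In the 19S particle, frequencies were read for 2 ATPases and 4 non-ATPases of the 45 genes. Psmc1 was at 0.552, 0.504, 0.550 and 0.507, and Psmc5 at 0.503, 0.492, 0.499 and 0.460. Replicate 1 of each cross was the higher of its pair in both ATPases. Psmd7, the partner of Psmd14 in the lid, was at 0.541, 0.513, 0.550 and 0.543, above 0.5 in 4 of 4 mice, with a log2 odds of 0.21 (SE 0.05) that missed the threshold (adjusted p = 0.0564, range over the alternatives 0.0378 to 0.209). Psmd2, a ubiquitin-binding scaffold of the base, was at 0.533, 0.511, 0.505 and 0.486. Psmd12, a lid subunit, was at 0.531, 0.498, 0.490 and 0.497. For Psmd2 and Psmd12 the MSM/B6 mice lay above the B6/MSM mice, and for Psmd7 below them.

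The nuclear activator Psme3 was at 0.477, 0.486, 0.497 and 0.520, with both MSM/B6 mice below both B6/MSM mice. The inhibitor Psmf1 was at 0.511, 0.459, 0.422 and 0.419. MSM/B6 replicate 1 alone was above 0.5 for Psmf1, and both MSM/B6 mice lay above both B6/MSM mice. Its mean log2 odds was -0.28 (SE 0.07, adjusted p = 0.0632, range over the alternatives 0.0455 to 0.215). Of the alpha-ring chaperones, Psmg1 was at 0.480, 0.465, 0.471 and 0.506, Psmg2 at 0.510, 0.509, 0.506 and 0.531, and Psmg3 at 0.497, 0.506, 0.464 and 0.492. Their means were 0.481, 0.514 and 0.490, and the crosses overlapped for Psmg1 and Psmg2.

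**Figure D2:**
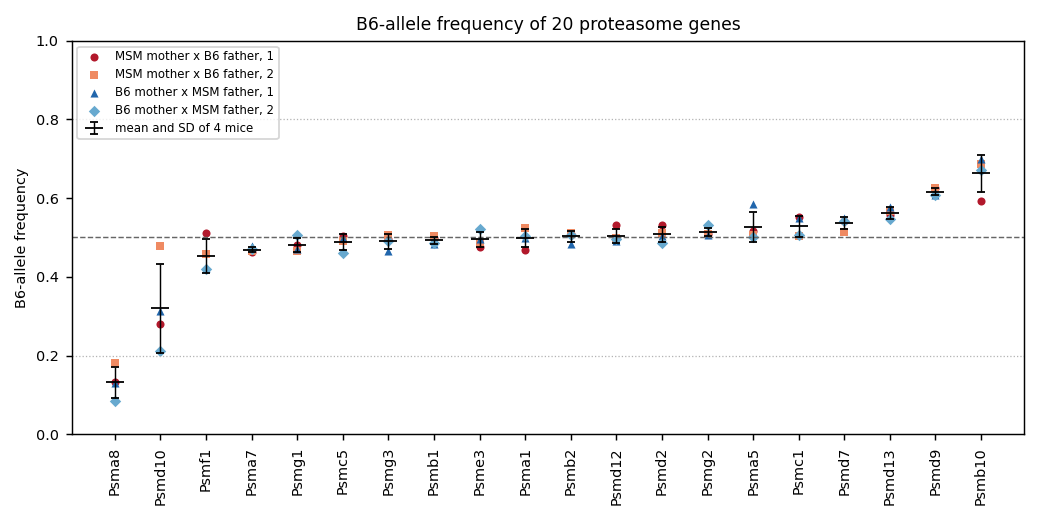
B6-allele frequency (0 to 1) of the 20 proteasome genes with a value in all 4 mice, ordered by mean, with each mouse as a point and the mean with its SD over the 4 mice. The dashed line is equal representation and the dotted lines are 0.2 and 0.8. Psma8 sits near 0.132, Psmb10 near 0.663 and Psmd9 near 0.617, and the points of Psmd10 spread from 0.212 to 0.477.

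Psmd10 varied most between mice. Its frequency was 0.280, 0.477, 0.312 and 0.212 (mean 0.320 ± 0.113, SD, n = 4), whereas the median SD was 0.0185 over the 20 proteasome genes and 0.0272 over all genes. MSM/B6 replicate 2 stood near 0.5 and the other 3 mice well below, so that the crosses overlapped. The mean log2 odds of -1.13 (SE 0.28) missed the threshold (adjusted p = 0.0595, range over the alternatives 0.0440 to 0.211).

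Psmd10 lies on the X chromosome (140948429 to 140956728), and in each cell of a female mouse 1 of the X chromosomes is silenced. The 77 other distal X-linked genes had median frequencies of 0.324, 0.532, 0.326 and 0.267 in the 4 mice, while the autosomal median was 0.510 to 0.511 in every mouse. Psmd10 had the same mouse highest and the same mouse lowest as these X-linked medians, and it stood below the median in each mouse, with 20.8%, 24.7%, 37.7% and 14.3% of the X-linked genes below it. It was under the lower quartile of the X-linked genes in 3 mice and between the quartiles in B6/MSM replicate 1. The ubiquitin shuttle factor Ubqln2, also X-linked, was at 0.309, 0.443, 0.286 and 0.285. The X-linked and autosomal values were not tested against each other.

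**Figure D3:**
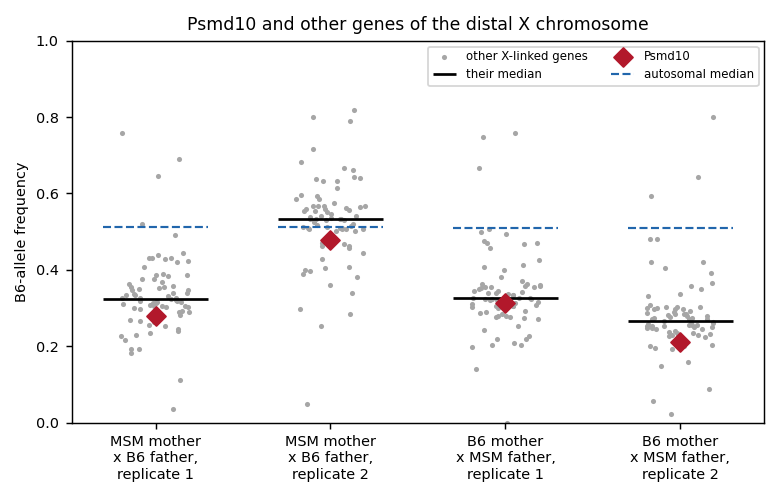
B6-allele frequency (0 to 1) in each mouse for Psmd10 (red diamond) and for 77 other X-linked genes beyond 100 Mb (grey points), with their median (black bar) and the median of autosomal genes (blue dashed bar). The X-linked median is 0.532 in MSM/B6 replicate 2 and 0.267 to 0.326 in the other 3 mice, and Psmd10 lies a little under it in each.

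The second question was whether the direction of the cross mattered, that is, whether the frequency or the expression differed between MSM/B6 and B6/MSM mice. For the frequency, limma called no proteasome gene (0 of 20, against 0.0826% of all genes), with a lowest adjusted p of 0.873. At an unadjusted p under 0.05 the count was 0 of 20 proteasome genes and 190 of all genes. The lowest unadjusted p of the 20 genes was that of Psmf1 (0.0694), with mean frequencies of 0.485 in MSM/B6 and 0.420 in B6/MSM mice. Without a test, 8 genes had both MSM/B6 mice above both B6/MSM mice (18.4% of all genes did), and 3 genes, Psma7, Psmd7 and Psme3, were the other way round (15.9% of all genes). With 2 mice against 2, an exact permutation test of a single gene cannot go below p = 0.333.

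Expression did not pass the threshold for any proteasome gene either (0 of 45, against 0.0455% of all genes). Most fitted differences were higher in MSM/B6 mice, 39 of 45 against 54.1% of all genes, with a median difference of 0.16 in log2(FPKM + 1) against 0.02 for all genes and 0.08 for 1153 genes of a similar level (33.6 to 102 FPKM). The count was 36 when the mice were scaled to the same median FPKM and 34 with quantile normalization, and it was 24 of 45, with a median of 0.0089, without MSM/B6 replicate 1. By limma the lowest adjusted p was 0.524, for Psmb10, which was also the only 1 of the 45 genes with an unadjusted p under 0.05 (780 of all genes).

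Psmb10 had the largest fitted difference, -0.50 in log2(FPKM + 1) (SE 0.17, unadjusted p = 0.0283, adjusted p from 0.175 to 1 over the alternatives), from means of 27.8 FPKM in MSM/B6 and 39.3 FPKM in B6/MSM mice. Psma8 was the other gene with both B6/MSM mice above both MSM/B6 mice, with a difference of -0.35 (SE 0.15, adjusted p = 0.578). Together they made up 2 of 45, against 19.4% of all genes. In this bulk tissue, fewer cells of a type and less RNA per cell cannot be told apart. Beside Psmb10, the summed Kupffer cell markers were 109.7 and 101 FPKM in MSM/B6 and 143 and 133 FPKM in B6/MSM mice. The only lymphocyte marker listed, Ccl5, was at 3.14, 2.07, 5.30 and 5.61 FPKM. Summed sinusoidal endothelial markers split the same way, at 109 and 101 FPKM in MSM/B6 and 113 and 120.3 FPKM in B6/MSM mice. As single genes, Stab2, Pecam1 and Kdr split this way. Clec4g, the largest part of the sum, overlapped between the crosses, at 69.1, 54.8, 61.0 and 71.8 FPKM, and so did Ptprb. Summed hepatocyte and stellate cell markers were higher in both MSM/B6 mice than in both B6/MSM mice. Among the single markers listed, the hepatocyte marker Cps1 and the stellate markers Reln and Col3a1 overlapped between the crosses. Apoa1, Ttr, Fgb, Tat and Dcn did not. The part of these cells in the Psmb10 values was not tested.

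In the other direction, 12 of 45 genes had both MSM/B6 mice above both B6/MSM mice, against 23.0% of all genes. They were Psma2, Psma4, Psmb2, Psmb5, Psmb7, Psmc1, Psmc3, Psmc4, Psmc5, Psmd4, Psmd9 and Psme3. The largest fitted differences among them were those of Psmb7 (0.36, SE 0.19, adjusted p = 0.611), Psmb5 (0.35, SE 0.19, adjusted p = 0.619) and Psma4 (0.31, SE 0.15, adjusted p = 0.589). Without MSM/B6 replicate 1 these differences were 0.17, 0.14 and 0.20. Psma4, an alpha subunit, was at 128, 109, 91.2 and 98.7 FPKM, so that MSM/B6 replicate 1 was well above and the other 3 mice were nearer together. Psmd9, called toward B6 by allele, was at 23.4, 19.9, 16.2 and 18.9 FPKM, a difference of 0.29 (SE 0.14, adjusted p = 0.586).

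The highest and the lowest values of proteasome genes fell mostly in single mice. MSM/B6 replicate 1 held the highest value of 37 of 45 proteasome genes (82.2%), of 39.1% of all genes and of 56.5% of the genes of similar level, and B6/MSM replicate 1 held the lowest value of 30 (32.3% of all genes). Summed stellate cell markers were also highest in MSM/B6 replicate 1 (97.2 FPKM) and lowest in B6/MSM replicate 1 (71.0 FPKM). That sum was mostly Dcn, at 88.9, 73.7, 58.7 and 67.5 FPKM. The other stellate markers listed, Reln and Col3a1, were instead lowest in MSM/B6 replicate 1 (5.25 and 3.03 FPKM). Summed hepatocyte markers were lowest in B6/MSM replicate 1 (12198 FPKM). The part of cell composition was not tested. Of the other proteasome genes, 6 were highest in B6/MSM replicate 1, 2 in MSM/B6 replicate 2 and 0 in B6/MSM replicate 2. In log2(FPKM + 1), the median deviation of proteasome genes from their own mean was 0.20, -0.06, -0.13 and -0.02 in the 4 mice, and 0.17, -0.05, -0.10 and -0.02 after scaling to the same median FPKM.

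The median size of this step differed among roles, which was not tested. In MSM/B6 replicate 1 the median deviation was 0.26 for the 14 core genes, 0.26 for the assembly chaperones, 0.17 for the 19S genes and 0.05 for the activators. The activators ran from -0.08 (Psme4) to 0.20 (Psme2), and the median of the genes of similar level was 0.12. Against the mean of the other 3 mice, the FPKM ratio was highest for the chaperones Psmg3 (1.66) and Psmg1 (1.53), followed by Psmb5 (1.44) and Psmb7 (1.40), and lowest for Psma8 (0.889), Psme4 (0.925) and Psmb10 (0.938). The median ratio was 1.21 for proteasome genes, 1.11 for genes of similar level and 1.03 for all genes. Proteasome genes together made up 0.547%, 0.558%, 0.543% and 0.537% of the summed FPKM, so their share of the whole was not highest in MSM/B6 replicate 1, the mouse with the largest summed FPKM. The part of that sum in the deviations was not tested.

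**Figure D4:**
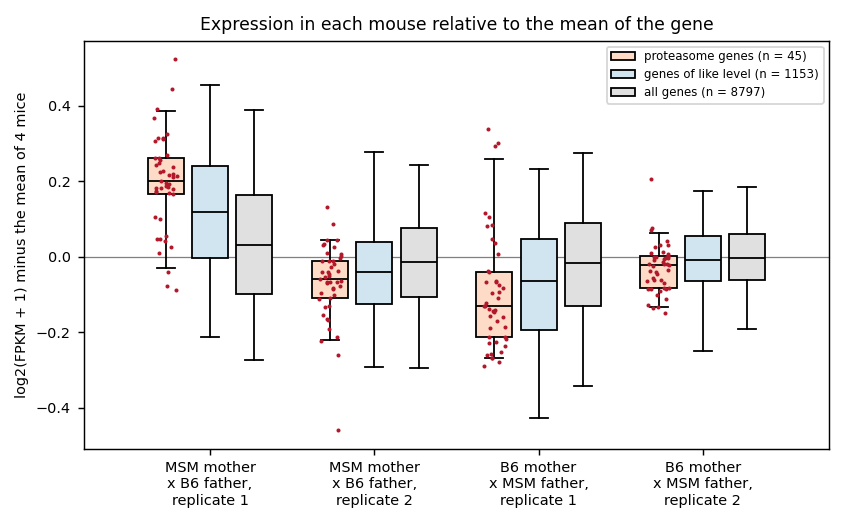
Deviation of log2(FPKM + 1) from the mean of the gene over the 4 mice, by mouse, for 45 proteasome genes (red points over orange boxes), 1153 genes of similar level (blue) and all 8797 genes (grey). Boxes are quartiles with the median, and whiskers reach the 5th and 95th percentiles. The median of the proteasome genes is 0.20 in MSM/B6 replicate 1 and -0.13 in B6/MSM replicate 1.

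Of 30 genes for factors that work with the proteasome, or belong to it under other symbols, 29 were listed and 12 had a frequency. Toward the B6 allele 1 of 12 was called (22.6% of all genes), Ddi2, the protease that releases Nfe2l1 from the endoplasmic reticulum, at 0.717, 0.660, 0.625 and 0.685 (log2 odds 1.04, SE 0.11, adjusted p = 0.0117). Toward the MSM allele 2 of 12 were called (13.6% of all genes). They were the X-linked Ubqln2 (log2 odds -1.03, SE 0.17, adjusted p = 0.0244) and Zfand2a, an arsenite-inducible partner of the proteasome. Zfand2a was at 0.305, 0.404, 0.415 and 0.419 (log2 odds -0.68, SE 0.13, adjusted p = 0.0334). Ddi2, Ubqln2 and Zfand2a each lay on the same side of 0.5 in 4 of 4 mice. The median of the distal X-linked genes was also below 0.5 in every mouse but MSM/B6 replicate 2, at 0.324, 0.532, 0.326 and 0.267. Between the crosses, limma called none of the 12 in frequency and none of the 29 in expression. Nfe2l1 itself, a proximal gene without a frequency, was at 35.8, 35.8, 34.1 and 33.1 FPKM, with the 4 mice close together.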

How the data were processed

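Liver poly(A) RNA of 4 mice was sequenced by the authors as stranded 150-bp read pairs. The authors used Trim Galore for trimming, TopHat2 for alignment to a SNP-masked mm10, SNPsplit to assign alleles and Cuffdiff to count, in versions not given in the sources used here. Per the file headers and the labels, the deposited values were FPKM and the B6-allele frequency, a fraction. By the authors' notes it was limited to genes with enough allele-informative reads, but in the tables its listing followed chromosomal position. The tables hold no read counts, so the reads behind each value are unknown and no interval was computed.

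Groups came from the sample titles. Frequencies, limited to 0.01 to 0.99, were turned into log2 odds and fitted with limma 3.58.1 (R 4.3.3). The average over the crosses was set against 0, and a cross term gave their difference. Expression was fitted on log2(FPKM + 1) with a variance trend where the mean FPKM reached 1, and this scale understates changes of low genes. P-values were two-sided and adjusted over all genes by Benjamini-Hochberg, with a threshold of 0.05. P-values measure the spread between these mice only. The fits were run on simulated data with planted changes larger than most of those reported here, so these runs say little about smaller changes.

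Gene positions were from GENCODE M21, copies from BLAST 2.17.0, and promoters from RefSeq (GRCm38.p6). Python 3.11.15 with numpy 2.4.6, pandas 2.3.3, scipy 1.17.1 and matplotlib 3.10.9 handled tables and plots. The proteasome genes, the role groups and the lists of associated factors and cell markers were chosen with earlier results of these data known. Named genes were those with a frequency, those called, and the highest and lowest of each role, and the others named for a largest ratio or steadiest value were picked after their values were seen. Alternatives covered limits, scale, filters, variance trend, position, centring or scaling, a replicate block and leaving out each mouse.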

Additional observations from a re-analysis of the deposited data

Results flagged for a closer look

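In a test for 1 mouse standing far from the other 3 (a gap to the nearest mouse that fills most of the range, by Dixon's test), 4 of 65 sets of 4 values stood out, and chance gives about 1 in 20. Of these, 3 were expression values of MSM/B6 replicate 1. Psmc2, an ATPase of the 19S base, was at 71.5 FPKM there and at 60.2 to 61.6 FPKM in the other mice. Psmd10 was at 9.89 FPKM there and at 6.86 to 7.22 FPKM in the others. Psmg3, a chaperone of the alpha ring, was at 24.0 FPKM there and at 13.9 to 15.4 FPKM in the others. Its transcript shares 237 bp with Gm26938 on the same strand. The fourth was the B6-allele frequency of the chaperone Psmg2, at 0.531 in B6/MSM replicate 2 and at 0.506 to 0.510 in the other mice.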

How the results depend on the processing

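Among the alternatives run, no called allelic imbalance changed direction. Mean frequencies close to 0.5 (Psma1, Psmb2, Psmd12 and Psme3) crossed 0.5 with 1 mouse left out, and the 39 of 45 genes fitted higher in MSM/B6 mice became 24 without MSM/B6 replicate 1. The count of proteasome genes called toward B6 (3) was 0 to 2 with 1 mouse left out, and 1 (Psmd9) with the replicate block, under which the adjusted p was 0.0529 for Psmb10 and 0.0692 for Psmd13. It was 4, with Psmd7 added, at a minimum mean FPKM of 5 or 10 and with a variance trend. The count toward MSM (1) stayed at 1 with any mouse left out, and was 2 on the frequency scale, 2 with a variance trend, 3 among distal genes only and 4 with each mouse shifted to a median log2 odds of 0. Psma8 was called wherever it was tested, but a minimum mean FPKM of 5 or 10 removed it, and Psma7 was then the 1 gene called toward MSM. Over all genes, the counts toward B6 and MSM (822 and 494) were 521 and 329 at a minimum mean FPKM of 10, 481 and 294 with the replicate block, and 108 to 315 and 73 to 199 with 1 mouse left out. For the cross term in frequency, 3 genes became 1 with wider limits on the frequency, 1 at a minimum of 10 FPKM and 0 to 6 with 1 mouse left out. For the cross term in expression, 4 genes became 285 with the replicate block and 13 to 21 with 1 mouse left out. Proteasome genes called between the crosses stayed at 0 in all of these, in frequency and in expression. The causes were not tested. The replicate block used a number that the labels do not tie to a litter or batch, and deviations of mice with the same number correlated at 0.00375 for expression and 0.146 for log2 odds, across genes. With 1 mouse left out, the lone mouse of a cross was assumed to vary like the others. No minimum on FPKM changed nothing, since the lowest mean was 2.501 FPKM. Unknown read depth limits every frequency, above all those of Psma8 and Psmd10.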

Other observations

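Ubb, a polyubiquitin gene, was at 658, 530, 491 and 572 FPKM, highest in MSM/B6 replicate 1 and lowest in B6/MSM replicate 1. Pomp, the maturation factor of the 20S core, was at 235, 169.5, 162 and 169 FPKM, also highest in MSM/B6 replicate 1, and its B6-allele frequency stayed between 0.487 and 0.508.

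The pair of subunits of the interferon-inducible activator did not run in parallel. Psme1 was 98.0%, 101%, 139.8% and 98.2% of Psme2 in the 4 mice, and B6/MSM replicate 1 alone stood apart. Psme2 has a copy of 99.4% identity over 82.5% of its transcript, so its level is uncertain.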
